A study of Mus musculus with 15 samples.

Results

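The MTG corepressors and the LDB and LMO cofactors of LIM-domain proteins were followed in cortical interneurons from *Lhx6* mutants and from embryos labelled *Mtg8* mutant. They comprised 9 genes chosen by name, out of 28391 genes listed in at least 1 of the tables of the 2 comparisons: the MTG genes *Runx1t1* (MTG8), *Cbfa2t2* (MTGR1) and *Cbfa2t3* (MTG16), the LDB genes *Ldb1* and *Ldb2*, and the LMO genes *Lmo1*, *Lmo2*, *Lmo3* and *Lmo4*. RNA was sequenced from YFP-positive cells sorted from the cortex of single mouse embryos at E14.5, on a mixed C57BL6/CBA background. Every embryo carried Nkx2-1-Cre and, on both alleles, the R26R-YFP reporter, so that the sorted cells were those with a history of Nkx2-1-Cre activity, which marks the medial ganglionic eminence (MGE). The *Lhx6* comparison set 5 *Lhx6*-/- embryos against 4 *Lhx6*+/+ littermate controls, and the *Mtg8* comparison set 3 libraries labelled *Mtg8*-/- against 3 *Mtg8*+/+ littermate controls. The *Lhx6* null was a germline allele made from a floxed one, so the loss of function was in the whole embryo and not in the sorted cells alone. The *Mtg8* mutants are given as -/-, which the study uses for its constitutive loss-of-function line, a lacZ knock-in, and writes apart from its conditional fl/fl line.

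MTG proteins do not bind DNA by themselves. They sit between DNA-binding factors, such as E proteins, BCL6 or PLZF, and the NCOR, SIN3 and histone deacetylase complexes that silence transcription. LDB proteins form dimers and bind the LIM domains of LIM-homeodomain factors such as LHX6, which lets 2 such factors act together, and SSBP proteins protect LDB proteins from degradation. LMO proteins consist of little more than LIM domains, so they can occupy LDB proteins in place of a LIM-homeodomain factor or bridge LDB to other DNA-binding proteins. LHX6 is the LIM-homeodomain factor that MGE-derived interneurons need to settle in the cortex and to take on their subtypes.

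Between 12218422 and 22053032 reads were counted per library. *Lhx6*, the targeted gene of the first comparison, lay between 5812 and 8441 normalized counts in the controls and between 236 and 495 in the *Lhx6* mutants (log2 fold change -4.48 ± 0.20 (SE), limma adjusted p = 1.34e-07). *Runx1t1*, the targeted gene of the second, was not lower in any library labelled *Mtg8* mutant than in a control, and how the knock-in alters the counted exons is not given in the sources used here, so its count does not check these labels. *Sst*, one of the MGE markers and named here after its values were seen, was at 14420 to 18501 normalized counts in *Mtg8* controls and 5683 to 8048 in the libraries labelled mutant, without overlap (log2 fold change -1.34 ± 0.19 (SE), limma adjusted p = 0.0713, DESeq2 adjusted p = 9.2e-06). The 14 markers of MGE-derived interneurons summed to 46493 to 57600 normalized counts in *Lhx6* controls and to 75435 to 80425 in *Mtg8* controls, and markers of other cells were also present. Over all libraries 6 pyramidal markers summed to between 4756 and 18734, 5 erythroid markers to between 1695 and 58178, and 5 endothelial markers to no more than 248. In *Lhx6* control 3 the erythroid sum, 58178, was above the MGE sum, 57600. Library names came in a dated and an undated form, and what the form stands for is not given in the sources used here. All 4 *Lhx6* controls and *Lhx6* mutant 6 were undated and the other *Lhx6* mutants were dated, so in that comparison the name form and the genotype cannot be told apart except through mutant 6. There was no dated *Lhx6* control among the libraries to set beside the dated mutants, and each value for the undated *Lhx6* libraries rests on 1 mutant. That library, mutant 6, stood apart in its markers, with a progenitor sum of 17061 normalized counts against 7582 to 11389 in the other *Lhx6* mutants and 9068 to 11111 in the controls, and with the lowest MGE sum of the 9 libraries, 31589 against 38741 to 53702 in the other mutants. The part of this in the undated and shared-start values was not tested. Some libraries share all of their name but its last number, and what this shared start stands for is likewise not given. *Lhx6* mutant 6 shared it with controls 1 and 2, labelled *Mtg8* mutant 2 shared it with *Mtg8* controls 1 and 2, and *Lhx6* mutants 2 and 5 shared one with each other. Of the mutants, 4 in the *Lhx6* comparison and 2 in the *Mtg8* comparison shared it with no control.

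*Runx1t1* was the only member that passed the test in the *Lhx6* comparison, and its level more than doubled. *Runx1t1* (ENSMUSG00000006586.15, protein coding, chr4:13743436-13893649, + strand, GRCm38.p6) encodes MTG8. Normalized counts are reads per gene divided by the library's size factor. In *Lhx6* controls 1 to 4 they were 7232, 6394, 8945 and 7226. In *Lhx6* mutants 1, 2, 3, 5 and 6 they were 26527, 15377, 16613, 19119 and 12227. Each mutant was above each control, and mutant 6, the undated one, was the nearest to the controls. Controls averaged 7449 ± 1072 (SD, n = 4) and mutants 17973 ± 5387 (SD, n = 5), a 2.41-fold difference. The log2 fold change was 1.23 ± 0.19 (SE), with a limma adjusted p of 0.00401 over 16727 genes tested. Of those genes 1.71% passed the test, 1.03% as higher in mutants, against 1 of the 9 members. At an unadjusted p under 0.05 stood 12.7% of the genes and 3 members, *Runx1t1*, *Lmo4* and *Lmo2*.

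The rise of *Runx1t1* remained past the threshold whichever library was left out (log2 fold change 1.08 to 1.36, adjusted p 0.00117 to 0.0222). With a replicate block in the limma fit it missed the threshold, at a log2 fold change of 1.34 and an adjusted p of 0.0541. Among undated libraries alone the difference was 0.73, and with the name form as a term in the limma fit the adjusted p was 0.659, so the call did not hold there. With the shared name start as a term, chosen after seeing the data, the log2 fold change was 0.85 and the adjusted p 0.0706, a fit in which mutant 6 and controls 1 and 2 alone carry the difference. The fold change of a sorted population is an average, and more cells with the transcript cannot be told apart from more transcript per cell. Summed markers of interneurons from the caudal ganglionic eminence (CGE) moved with it, from 1182 to 1377 normalized counts in controls to between 2188 and 2866 in mutants, over 5 genes that did not move one way. *Adarb2* rose from a mean of 31.5 to 637 (adjusted p = 6.9e-06) and *Htr3a* fell from 222 to 78.8 (adjusted p = 0.0451). The others did not pass limma's test, with log2 fold changes of 0.88 for *Nr2f2*, 1.03 for *Sp8* and -0.59 for *Prox1*, whereas *Nr2f2* and *Sp8* passed by DESeq2 (adjusted p = 0.00427 and 0.0393) and every mutant was above every control for *Nr2f2*. Summed markers of the pyramidal lineage overlapped between groups, at 12280 to 17823 in controls and 10243 to 14280 in mutants, over 6 genes. The part of other cells in the result was not tested.

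**Figure D1:**
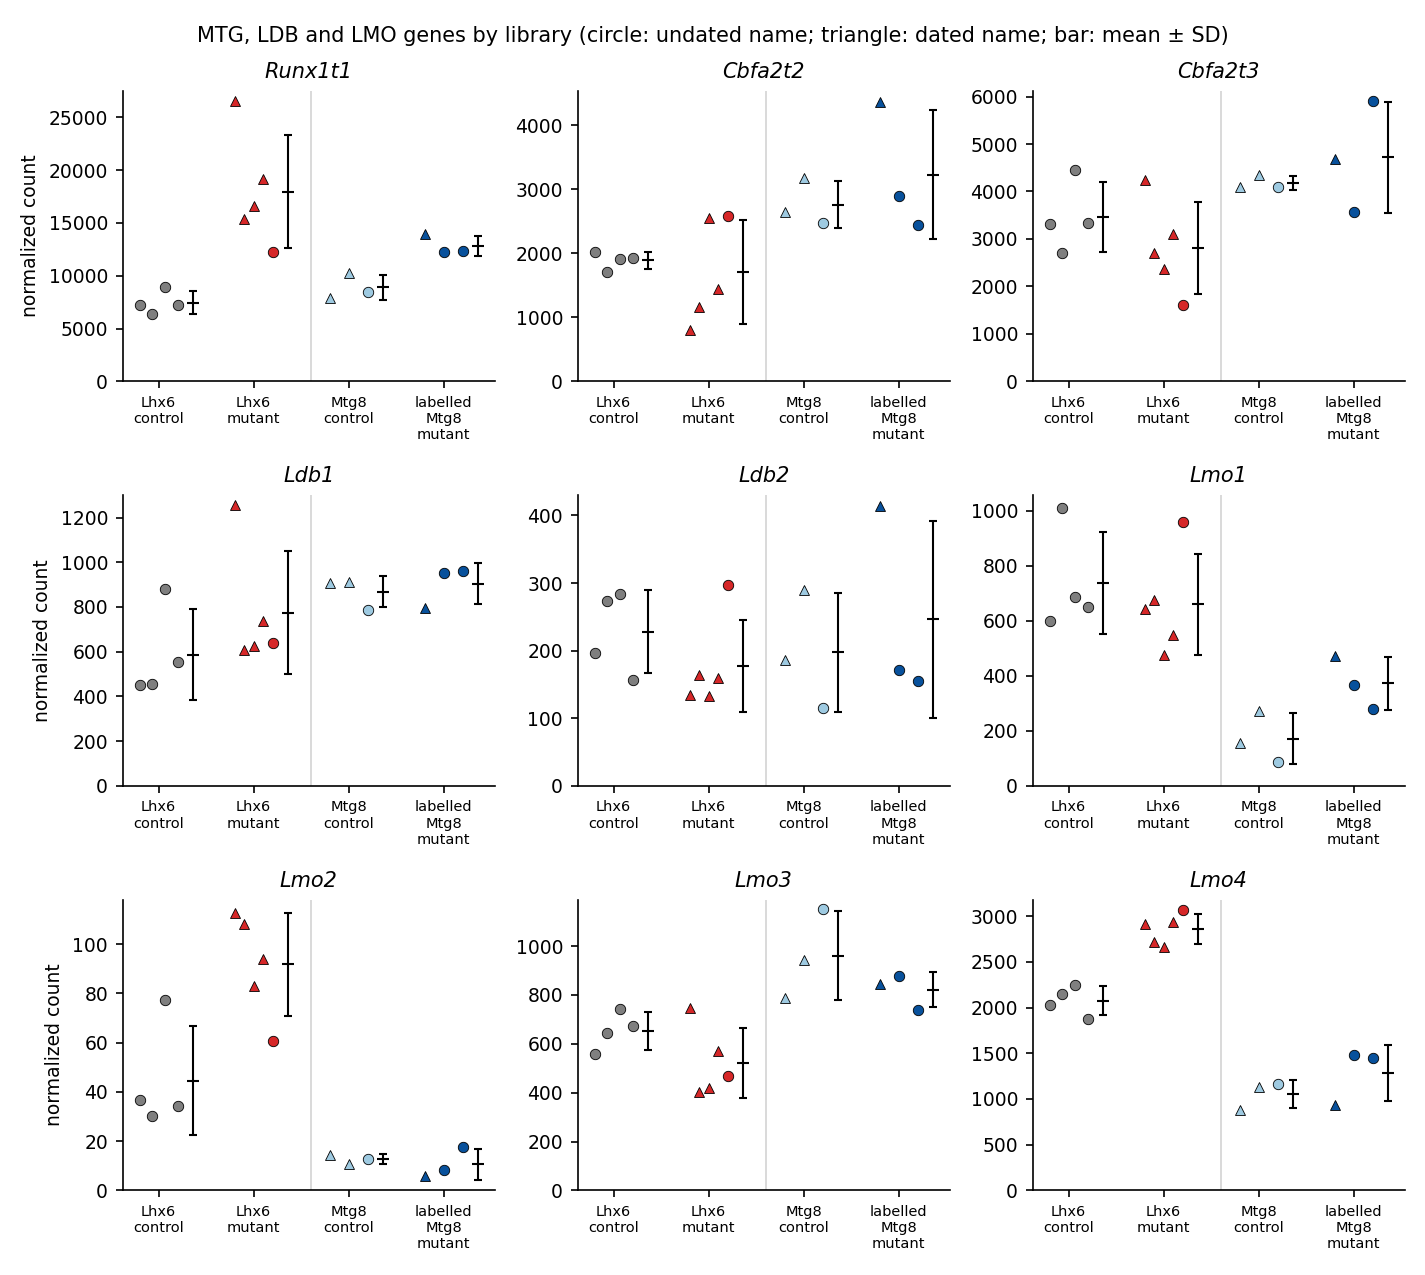
Normalized counts of the 9 members in each library, on linear axes that start at 0 and differ between panels. Circles are libraries with undated names, triangles libraries with dated names, and the bar beside each group is its mean ± SD; the grey line separates the 2 comparisons, which were normalized separately. All 5 *Lhx6* mutants lie above all 4 controls for *Runx1t1* and *Lmo4*, and all 3 libraries labelled *Mtg8* mutant lie above all 3 controls for *Runx1t1* and *Lmo1*.

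The other MTG genes did not pass the test and their fitted changes had the opposite sign. *Cbfa2t3* (ENSMUSG00000006362.16, protein coding, chr8:122625141-122699109, - strand) encodes MTG16. It stood at 3325, 2697, 4462 and 3340 normalized counts in *Lhx6* controls 1 to 4 and at 4242, 2710.1, 2365, 3100 and 1616 in mutants 1, 2, 3, 5 and 6. These ranges overlapped, with mutants 3 and 6 below the lowest control, and the log2 fold change was -0.35 ± 0.24 (SE, adjusted p = 0.564). For the undated mutant 6 against the controls it was -1.07, and with the shared name start as a term it was -0.89 (adjusted p = 0.0933). *Cbfa2t2* (ENSMUSG00000038533.15, protein coding, chr2:154436481-154539356, + strand) encodes MTGR1. Its controls lay close together, between 1703 and 2017 normalized counts. Its mutants were at 803, 1162, 2543, 1443 and 2588 in the same order, 3 below and 2 above every control, so the coefficient of variation was 7.01% in controls and 47.7% in mutants. The log2 fold change was -0.29 ± 0.30 (SE, adjusted p = 0.697), and it was 0.46 for the undated mutant 6 against the controls. Leaving out 1 library moved it between -0.47 and -0.049.

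Set against each other within a library, the MTG genes changed their proportions. To compare genes of different length, each level was divided by the gene's exon length and expressed as a share of the family's sum, a quantity that does not depend on the size factor. *Runx1t1* made up 59.0%, 60.8%, 59.9% and 59.4% of the MTG level in *Lhx6* controls 1 to 4. In *Lhx6* mutants 1, 2, 3, 5 and 6 it made up 84.8%, 80.8%, 78.4%, 81.7% and 75.7%. The controls lay within 2 percentage points of each other, and the mutants were all far above them. The share averaged 59.8% ± 0.745 among controls (SD, n = 4) and 80.3% ± 3.42 among mutants (SD, n = 5), 20.5 percentage points apart (exact two-sided permutation test, p = 0.0159, the smallest this design allows, and 0.0317 after adjustment over 4 such measures). Mutant 6 against the controls, the undated libraries alone, gave 16.0 percentage points. This share uses the same *Runx1t1* values as the fold change and is not separate support for it. The share of *Cbfa2t3*, given as a description, lay between 24.4% and 28.4% in controls and between 9.51% and 13.5% in mutants, without overlap. The *Runx1t1* level is part of the sum it is divided by, and the counts of *Cbfa2t3* themselves overlapped between groups. The share of *Cbfa2t2* lay between 11.8% and 15.2% in controls and overlapped with the 2.36% to 14.7% of the mutants.

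**Figure D2:**
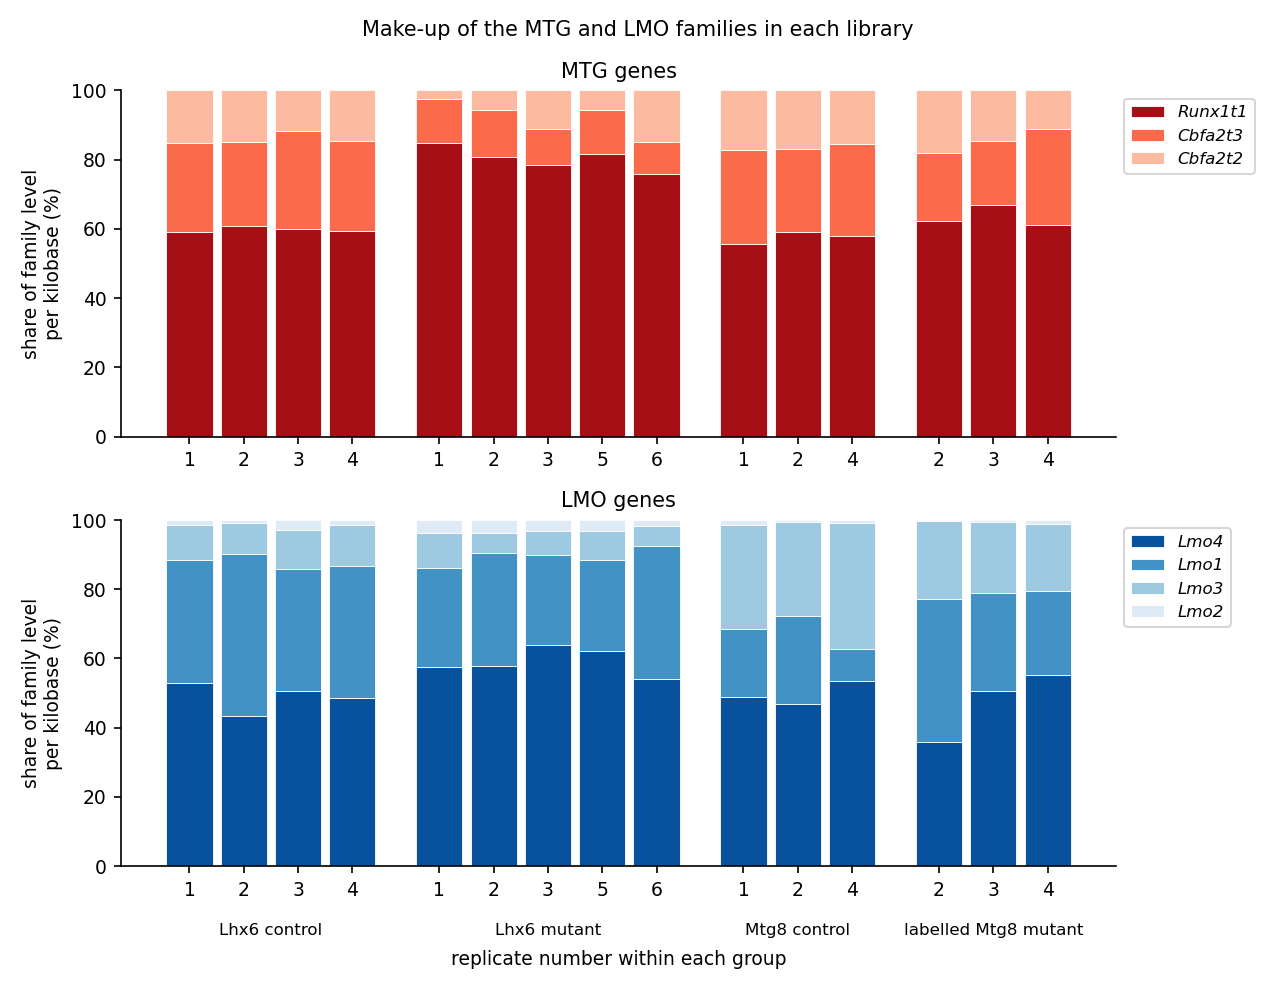
Share of each gene in the summed level per kilobase of its family, in percent, as 1 stacked bar per library, with replicate numbers within the 4 groups along the horizontal axis. In the upper panel *Runx1t1* fills 59.0% to 60.8% of the bar in *Lhx6* controls and 75.7% to 84.8% in *Lhx6* mutants; in the lower panel *Lmo4* fills 43.5% to 52.9% and 54.2% to 63.9%.

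No member passed the test in the *Mtg8* comparison, and neither did any other gene. limma called 0.0% of 16132 genes, with 5.49% (886 genes) at an unadjusted p under 0.05, edgeR called 0 and DESeq2 called 31 genes (0.191%), none of them a member. *Runx1t1* was at 7938, 10265 and 8470.1 normalized counts in *Mtg8* controls 1, 2 and 4 and at 13934, 12250 and 12352 in labelled *Mtg8* mutants 2, 3 and 4. All 3 labelled mutants were above all 3 controls. Groups that do not overlap were found for 10.2% of the genes tested, 4.68% with the mutants above and 5.52% with them below, against 2 of the 9 members above, *Runx1t1* and *Lmo1*, and 0 below. The log2 fold change of *Runx1t1* was 0.54 ± 0.17 (SE, limma adjusted p = 0.859). The log2 difference was 0.63 within dated libraries, 1 labelled mutant against 2 controls, and 0.54 within undated ones, 2 against 1, with a sign that the lack of overlap fixes. Its share of the MTG level was 55.7%, 59.3% and 57.9% in the controls and 62.2%, 66.9% and 61.1% in the labelled mutants, which again did not overlap. The mean difference was 5.82 percentage points (exact two-sided permutation test, p = 0.1, the smallest that 3 against 3 allows). Beside it, the summed level of 7 progenitor markers lay between 6257 and 7871 normalized counts in controls and between 8598 and 12424 in the labelled mutants, and the summed MGE markers between 75435 and 80425 and between 48206 and 65169. The MGE sum leans on abundant genes, such as *Sst*, with means of 16695 and 6615, and *Dlx1*, with 19365 and 12630. Of the 14 MGE markers 3 were fitted above 0, and their median log2 fold change was -0.27. All 6 pyramidal markers were fitted above 0 in the labelled mutants, with a median log2 fold change of 0.69 against 0.53 for the 7 progenitor markers and -0.01 over all genes, and limma called none of them. Of the pyramidal markers *Neurod2* and *Emx1* did not overlap between groups and passed by DESeq2 (adjusted p = 0.0218 and 0.0406), as did *Sp8* of the CGE markers (adjusted p = 0.0241), while the pyramidal sums overlapped, at 4756 to 11916 in controls and 7356 to 18734 in labelled mutants. Their part in the result was not tested.

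*Cbfa2t2* and *Cbfa2t3* differed little between the same groups. *Cbfa2t3* lay between 4088 and 4354 normalized counts in *Mtg8* controls, and the labelled mutants 2, 3 and 4 were at 4684, 3566 and 5912 (log2 fold change 0.15 ± 0.20 (SE), adjusted p = 0.934). *Cbfa2t2* lay between 2464 and 3171 in controls and at 4361, 2889 and 2433 in the same libraries (0.19 ± 0.23 (SE), adjusted p = 0.923). Labelled mutants lay on both sides of the controls for each gene, and both signs turned when 1 labelled mutant was left out.

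**Figure D3:**
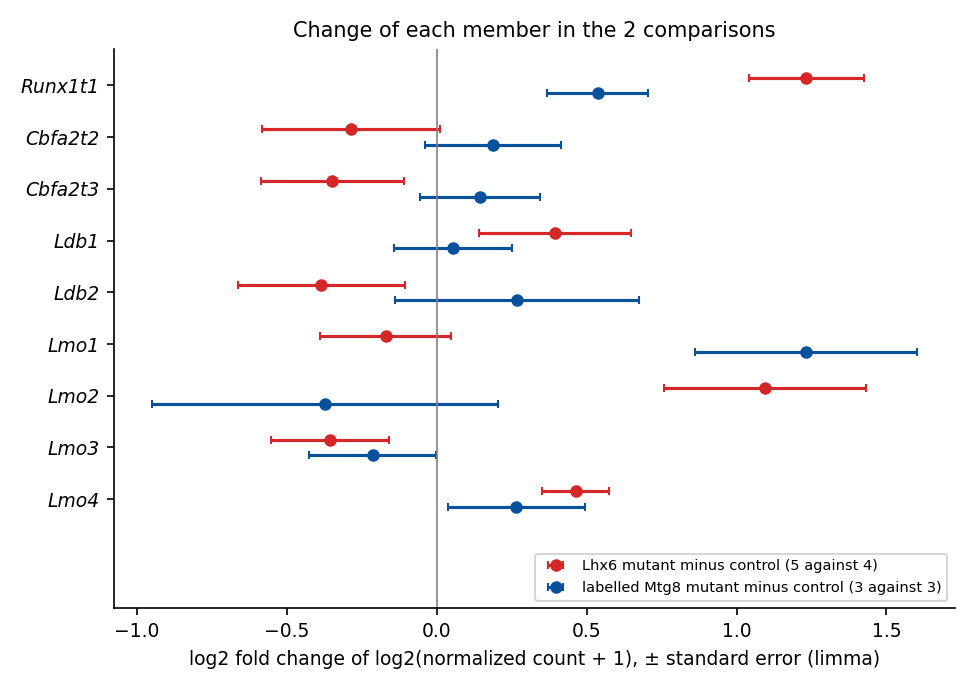
Log2 fold change of each member, mutant minus control, with its standard error from limma, in the *Lhx6* comparison (red, 5 against 4 libraries) and the *Mtg8* comparison (blue, 3 against 3). *Runx1t1* in the *Lhx6* mutants, at 1.23, is the single value with an adjusted p under 0.05, and *Lmo1* in the labelled *Mtg8* mutants has the same log2 fold change with about 2 times the standard error.

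LDB genes did not pass the test in either comparison. *Ldb1* (ENSMUSG00000025223.15, protein coding, chr19:46031570-46045214, - strand) encodes the widely used LDB protein, and 177 of its exon bases overlap with *Pprc1* on the other strand, whose reads could not be separated if counting ignored strand. It was at 453, 456, 882 and 555 normalized counts in *Lhx6* controls 1 to 4 and at 1257, 607, 624, 738 and 640.1 in mutants 1, 2, 3, 5 and 6. Control 3 and mutant 1 stood above the rest of their groups, and without control 3 the mutants would all lie above the controls. The log2 fold change was 0.40 ± 0.25 (SE, adjusted p = 0.538). It was 0.21 without mutant 1 and 0.61 without control 3. *Ldb2* (ENSMUSG00000039706.11, protein coding, chr5:44472132-44799680, - strand), the second LDB gene, was at 197, 274, 284 and 157 in the controls and at 135, 164, 132, 159.8 and 297 in the mutants. The undated mutant 6 was the highest of all 9 libraries and the dated mutants lay at the low end, so the fitted log2 fold change of -0.38 ± 0.28 (SE, adjusted p = 0.582) became 0.42 for mutant 6 against the controls. The share of *Ldb1* in the LDB level averaged 64.6% ± 7.72 among controls (SD, n = 4) and 75.0% ± 9.46 among *Lhx6* mutants (SD, n = 5), with overlapping ranges (exact two-sided permutation test, p = 0.127, adjusted p = 0.169).

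*Ldb1* had the smallest fitted change of all members in the *Mtg8* comparison, with 905, 913 and 787 normalized counts in controls and 798, 951 and 961 in the labelled mutants (log2 fold change 0.05 ± 0.20 (SE), adjusted p = 0.975). *Ldb2* was spread widely in both groups, from 115 to 290.1 normalized counts in controls and from 154 to 415 in labelled mutants, so that its standard error of 0.41 exceeded its log2 fold change of 0.27 (adjusted p = 0.942). The *Ldb1* share averaged 76.8% ± 6.89 among controls (SD, n = 3) and 73.4% ± 13.2 among labelled mutants (SD, n = 3), which overlapped.

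Of the LMO genes, *Lmo4* gave tight groups and came nearest to the threshold after *Runx1t1*. *Lmo4* (ENSMUSG00000028266.17, protein coding, chr3:144188530-144205220, - strand) encodes a LIM-only protein that is expressed in the embryonic forebrain. It was at 2026, 2147, 2252 and 1876 normalized counts in *Lhx6* controls 1 to 4 and at 2910.4, 2719, 2660.0, 2937 and 3072 in mutants 1, 2, 3, 5 and 6. Each mutant was above each control, and the coefficients of variation were 7.78% and 5.88%. Groups that do not overlap were found for 6.22% of the genes tested, 3.19% with the mutants above and 3.03% with them below, against 2 of the 9 members above, *Runx1t1* and *Lmo4*, and 0 below. The log2 fold change was 0.46 ± 0.11 (SE), a 1.38-fold difference of the means, and the limma adjusted p was 0.0639. DESeq2 on the recovered reads gave an adjusted p of 0.000523 for the same difference, where 4.53% of all genes passed against 1.71% by limma, and leaving out mutant 3 gave a limma adjusted p of 0.0415. These were the 2 of 21 alternatives in which *Lmo4* passed, and over all 21 the adjusted p ranged from 0.000523 to 0.619, with 0.497 with the name form as a term and 0.226 with the shared name start. Among undated libraries the difference was 0.57. *Lmo4* made up 48.9% ± 3.997 of the LMO level among controls (SD, n = 4) and 59.1% ± 3.90 among mutants (SD, n = 5), without overlap (exact two-sided permutation test, p = 0.0159, adjusted p = 0.0317). This share uses the same *Lmo4* values, which missed limma's threshold, and is not separate support for them. Its difference of 10.2 percentage points was 5.30 among undated libraries alone. *Mtg8* controls had 881, 1126 and 1163 counts of *Lmo4*, and labelled mutants had 936, 1482 and 1449 (0.27 ± 0.23 (SE), adjusted p = 0.893), with labelled mutant 2 inside the range of the controls.

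*Lmo1* separated the groups in the other comparison. *Lmo1* (ENSMUSG00000036111.8, protein coding, chr7:109138572-109175207, - strand) encodes a LIM-only protein of neural tissue. It was at 154, 271 and 88.0 normalized counts in *Mtg8* controls 1, 2 and 4 and at 474, 365 and 279 in the libraries labelled mutant 2, 3 and 4. The lowest labelled mutant was just above the highest control. Controls averaged 171 ± 92.6 (SD, n = 3) and labelled mutants 372 ± 97.5 (SD, n = 3), which is 2.18-fold more. The log2 fold change was 1.23 ± 0.37 (SE), with a limma adjusted p of 0.859. With a replicate block, which rests on 2 pairs and called 100 genes, the limma adjusted p was 0.0286. The log2 difference was 1.21 in dated libraries, which hold 1 labelled mutant, and 1.85 in undated ones, which hold 1 control, and since the groups do not overlap the sign in each was fixed. Summed pyramidal markers were at 8783, 11916 and 4756 normalized counts in controls 1, 2 and 4 and at 18734, 10003 and 7356 in labelled mutants 2, 3 and 4. They put the libraries in the same order as *Lmo1* within each group, although the sums overlapped between groups. *Cbfa2t2* and *Ldb2* had this order within each group too, so it was not particular to *Lmo1*. The part of pyramidal cells in the *Lmo1* values was not tested. The groups overlapped in the *Lhx6* comparison, at 599.9, 1010.3, 687 and 649 in controls and 642, 674, 476, 548 and 958 in mutants (-0.17 ± 0.22 (SE), adjusted p = 0.755). Mutant 6 was again the highest mutant, and against the controls it gave 0.41.

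The sequences upstream of *Lmo4* and *Lmo1* are shown because these are the LMO genes whose groups separated, each in 1 comparison. They are the 250 bases before the most upstream start in a table of RefSeq promoters (GRCm38.p6), in which 6 of the 9 members were matched, all but *Runx1t1*, *Ldb2* and *Lmo2*. Capitals mark TAATTA, a core bound by homeodomain proteins, and CANNTG, the E-box bound by E proteins. Both read the same on either strand, and the letters of one cannot overlap with the other. The *Lmo1* window is chr7:109175208-109175457, and the *Lmo4* window is chr3:144205256-144205505, each printed on its gene's - strand.
Lmo1: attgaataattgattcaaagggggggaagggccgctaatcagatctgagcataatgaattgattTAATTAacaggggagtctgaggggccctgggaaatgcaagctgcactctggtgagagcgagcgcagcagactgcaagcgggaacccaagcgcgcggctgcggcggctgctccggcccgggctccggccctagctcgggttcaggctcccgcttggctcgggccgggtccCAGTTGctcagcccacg
Lmo4: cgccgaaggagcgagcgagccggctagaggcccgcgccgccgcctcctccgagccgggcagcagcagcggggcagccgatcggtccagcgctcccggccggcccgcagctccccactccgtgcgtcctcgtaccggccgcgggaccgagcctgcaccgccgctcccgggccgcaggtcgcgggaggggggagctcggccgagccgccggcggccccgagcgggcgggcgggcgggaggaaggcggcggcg
The *Lmo1* window holds 1 TAATTA and 1 CANNTG, and the *Lmo4* window holds neither. Both genes also have starts farther downstream, whose windows are not printed. At *Lmo4* these overlap with each other and hold the same 1 CANNTG and no TAATTA, with 25 and 29 CpG dinucleotides. At *Lmo1* the window overlaps with the printed one and holds the same TAATTA and CANNTG, with 29 CpG dinucleotides. Among 32851 windows of the same length 4.84% hold TAATTA and 66.2% hold CANNTG. The *Lmo4* window holds 44 CpG dinucleotides, more than 99.5% of all windows, and the *Lmo1* window holds 17. TGTGGT, a core of RUNX sites found in 14.05% of windows on either strand, and AGATAA, a core of GATA sites found in 9.99%, are in neither. A match to these letters describes the sequence and does not show binding.

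*Lmo2* and *Lmo3* completed the family. *Lmo2* (ENSMUSG00000032698.15, protein coding, chr2:103957986-103981878, + strand), known for bridging LDB1 to DNA-binding factors in blood and endothelial cells, rested on 34 to 117 reads per library in the *Lhx6* comparison. It was at 36.5, 30.1, 77.4 and 34.2 normalized counts in controls 1 to 4 and at 113, 108, 82.9, 94.0 and 60.7 in mutants 1, 2, 3, 5 and 6. Only control 3 reached into the range of the mutants, and the log2 fold change was 1.10 ± 0.34 (SE, limma adjusted p = 0.160). Control 3 also had the highest sum of endothelial markers among the controls, 177 against 21.3 to 68.3, and the highest sum of erythroid markers, 58178 against 5867 to 17931. In mutants 1, 2, 3, 5 and 6 the endothelial markers summed to 97.8, 103, 152, 248 and 54.5. The erythroid ones summed to 17012, 1695, 20197, 12681 and 13794 in the same order. Neither sum put the mutants in the order of *Lmo2*, and the part of such cells in the *Lmo2* values was not tested. *Lmo2* had only 5 to 23 reads per library in the *Mtg8* comparison and its groups overlapped (-0.37 ± 0.58 (SE), adjusted p = 0.943).

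*Lmo3* (ENSMUSG00000030226.12, protein coding, chr6:138362918-138581968, - strand) encodes a neural LIM-only protein. It lay between 557 and 742 normalized counts in *Lhx6* controls and between 404 and 746 in *Lhx6* mutants, with 3 of the 5 mutants below every control (-0.36 ± 0.20 (SE), adjusted p = 0.478). In *Mtg8* libraries it lay between 789 and 1152 in controls and between 739.98 and 877 in labelled mutants (-0.21 ± 0.21 (SE), adjusted p = 0.901). It was the only LMO gene whose fitted change was below 0 in both comparisons and under every alternative run, although it passed no test.

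The balance between LMO and LDB transcripts was compared as the log2 ratio of their summed levels per kilobase. *Lhx6* controls averaged 2.66 ± 0.33 (SD, n = 4) and *Lhx6* mutants 2.67 ± 0.27 (SD, n = 5) (exact two-sided permutation test, p = 0.968). *Mtg8* controls averaged 1.28 ± 0.29 (SD, n = 3) and labelled *Mtg8* mutants 1.51 ± 0.19 (SD, n = 3) (exact two-sided permutation test, p = 0.3). The groups overlapped in both comparisons.

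*Runx1t1* had the highest level per kilobase of the 9 genes in every library. Its mean in *Lhx6* controls was 936 ± 135 normalized counts per kilobase (SD, n = 4), above 91.7% of the genes tested. *Lmo4* followed at 588 ± 45.7, *Lmo1* at 475 ± 119.8, *Cbfa2t3* at 413 ± 87.7 and *Cbfa2t2* at 218 ± 15.3. *Ldb1* and *Lmo3* stood together at 127 ± 43.9 and 127 ± 14.9, and *Ldb2* at 68.3 ± 18.4 and *Lmo2* at 20.6 ± 10.2 closed the order. Neighbours whose ranges overlapped were *Lmo4* and *Lmo1*, *Lmo1* and *Cbfa2t3*, and *Ldb1* and *Lmo3*, whereas the other neighbours were separate. In *Lhx6* mutants the order of the means was the same, with *Runx1t1* at 2258 ± 677 (SD, n = 5), and *Lmo4*, at 810.1 ± 47.7, was now separate from *Lmo1*, at 425 ± 119.

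In *Mtg8* controls the order differed below the top. *Runx1t1*, at 1117 ± 153 normalized counts per kilobase (SD, n = 3), was followed by *Cbfa2t3* at 499 ± 17.96, *Cbfa2t2* at 319 ± 42.4, *Lmo4* at 299 ± 43.5, *Ldb1* at 189 ± 15.3 and *Lmo3* at 187 ± 35.5. *Lmo1* at 110.2 ± 59.6, *Ldb2* at 59.2 ± 26.3 and *Lmo2* at 5.83 ± 0.893 came last. The ranges of *Cbfa2t2* and *Lmo4*, of *Ldb1* and *Lmo3*, of *Lmo3* and *Lmo1*, and of *Lmo1* and *Ldb2* overlapped. The tables were normalized separately, so levels in one comparison are not set against levels in the other by any test. In labelled *Mtg8* mutants *Lmo1*, at 240 ± 62.8 (SD, n = 3), had a higher mean than *Ldb1*, at 196 ± 19.9, with overlapping ranges and this order in 2 of 3 libraries, and lay above *Lmo3*, at 159.9 ± 13.98, without overlap.

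Partner genes of the 3 families were taken from lists of known partners. Of 8 genes for MTG-bound corepressors (*Ncor1*, *Sin3a*, *Sin3b*, *Hdac1*, *Hdac2*, *Hdac3*, *Tbl1xr1* and *Gps2*), all were tested and 0 passed in either comparison, with a median log2 fold change of -0.07 in *Lhx6* mutants and -0.03 in labelled *Mtg8* mutants, beside -0.04 and -0.01 over all genes. Of 7 DNA-binding partners of MTG proteins tested in *Lhx6* mutants, *Bcl6* alone passed by limma. *Tcf12*, which encodes an E protein, was at 4040 to 5218 normalized counts in controls and 3013 to 3605 in mutants, without overlap, and passed by DESeq2 (log2 fold change -0.51 ± 0.12 (SE), limma adjusted p = 0.0547, DESeq2 adjusted p = 0.00164). In the *Mtg8* comparison it was at 6593 to 6995 in controls and 5303 to 5661 in labelled mutants, again without overlap (-0.30 ± 0.16 (SE), limma adjusted p = 0.859, DESeq2 adjusted p = 0.878). *Bcl6* encodes a zinc-finger repressor and rose from 36.8 to 70.9 normalized counts in controls to between 193 and 439 in mutants (log2 fold change 2.68 ± 0.30 (SE), adjusted p = 0.000308). *Bcl6* overlapped between groups in the *Mtg8* comparison (0.59 ± 0.54 (SE), adjusted p = 0.896).

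Of 3 genes tested in the LDB complex list, *Ssbp3* passed in *Lhx6* mutants. *Ssbp3*, which encodes a protein that stabilises LDB1, rose from 4654 to 5444 normalized counts in controls to between 7131 and 9933 in mutants (0.67 ± 0.12 (SE), adjusted p = 0.0115), and its groups overlapped in the *Mtg8* comparison (0.18 ± 0.22 (SE), adjusted p = 0.924). The call of *Ssbp3* was lost without control 1 (log2 fold change 0.63, adjusted p = 0.0629) and without control 2 (0.67, adjusted p = 0.0510). It was also lost without limma's trend (0.67, adjusted p = 0.0738) and with a replicate block (0.71, adjusted p = 0.351). The name form as a term (0.53, adjusted p = 0.668) and the shared name start as a term (0.59, adjusted p = 0.126) removed it too. The fold change stayed above 0 in each. With the name form as a term *Bcl6* had a log2 fold change of 2.05 and an adjusted p of 0.123, and with the shared name start 1.80 and 0.2001. Of 8 LIM-homeodomain genes tested, *Lhx6* itself was the 1 that passed by limma in *Lhx6* mutants. *Lhx8*, a LIM-homeodomain gene of the ventral forebrain, was at 4.61 to 25.7 normalized counts in controls and 26.08 to 139 in mutants and passed by DESeq2 (log2 fold change 2.05 ± 0.55 (SE), limma adjusted p = 0.0982, DESeq2 adjusted p = 0.00942). In labelled *Mtg8* mutants 0 of the 17 genes in these 3 lists passed by limma or by DESeq2. *Lhx6* was at 7055 to 8667 normalized counts against 8994 to 9489 in controls, without overlap (-0.24 ± 0.16 (SE), limma adjusted p = 0.870). *Ssbp4*, at 15.9 to 258 against 6.85 to 14.5 in controls (2.64 ± 0.77 (SE), limma adjusted p = 0.859), and *Lhx2*, at 698 to 1013 against 517 to 667, lay above without overlap. Besides these, *Tcf12* did not overlap there, and neither did 10.2% of all genes tested.

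**Figure D4:**
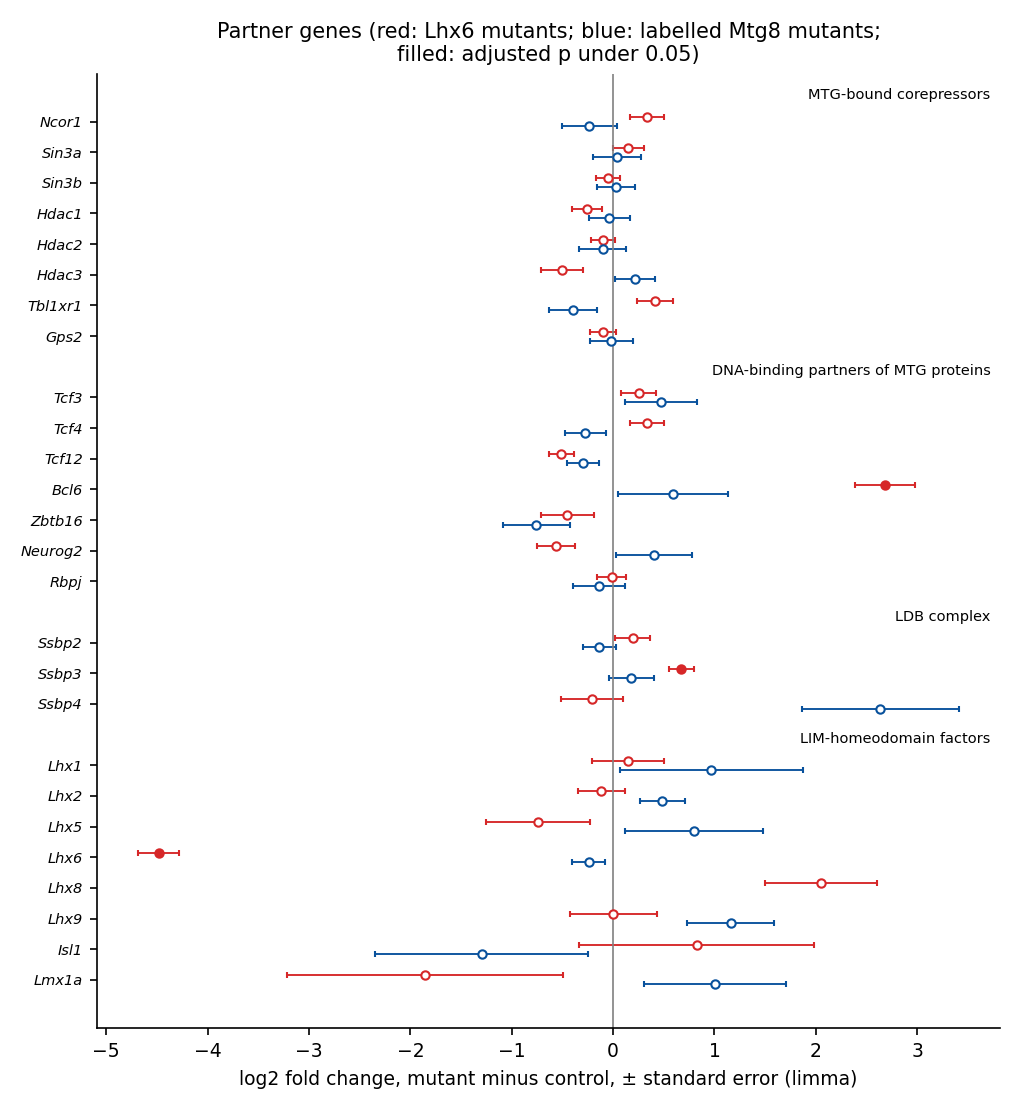
Log2 fold change with its standard error from limma for the partner genes that passed the filter on low values, in *Lhx6* mutants (red) and labelled *Mtg8* mutants (blue), grouped by list. Filled points have an adjusted p under 0.05: *Bcl6* at 2.68, *Ssbp3* at 0.67 and *Lhx6* at -4.48, all in *Lhx6* mutants, whereas every point of the corepressor list is open.

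The genes most like *Runx1t1* over the 9 libraries of the *Lhx6* comparison were *Sox4*, *Kat6b* and *Slain1*. Likeness was the root-mean-square difference of log2 values after each gene's mean was removed, which was 0.147 for *Sox4*, 0.161 for *Kat6b* and 0.166 for *Slain1*, with a median of 0.811 over all genes tested. *Sox4*, which encodes a transcription factor of immature neurons, averaged 23690 normalized counts in controls and 48981 in mutants. *Kat6b*, which encodes a histone acetyltransferase, averaged 878 and 1954, and *Slain1*, which encodes a microtubule-associated protein, averaged 1009 and 2150. The adjusted p was 0.00513 for *Sox4*, 0.00552 for *Kat6b* and 0.0473 for *Slain1*, and the last missed the threshold under 15 of 21 alternatives. All 4 genes were highest in mutant 1 and lowest among the mutants in mutant 6. With the name form as a term none of the 3 passed, at adjusted p of 0.784, 0.697 and 0.99998. The 3 genes were picked for their likeness to *Runx1t1*, a called gene, over these same libraries. Their adjusted p and the shared order of libraries follow from that choice and are not separate support. Genotype and name form run together in these libraries, and the likeness is given as a description.

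**Figure D5:**
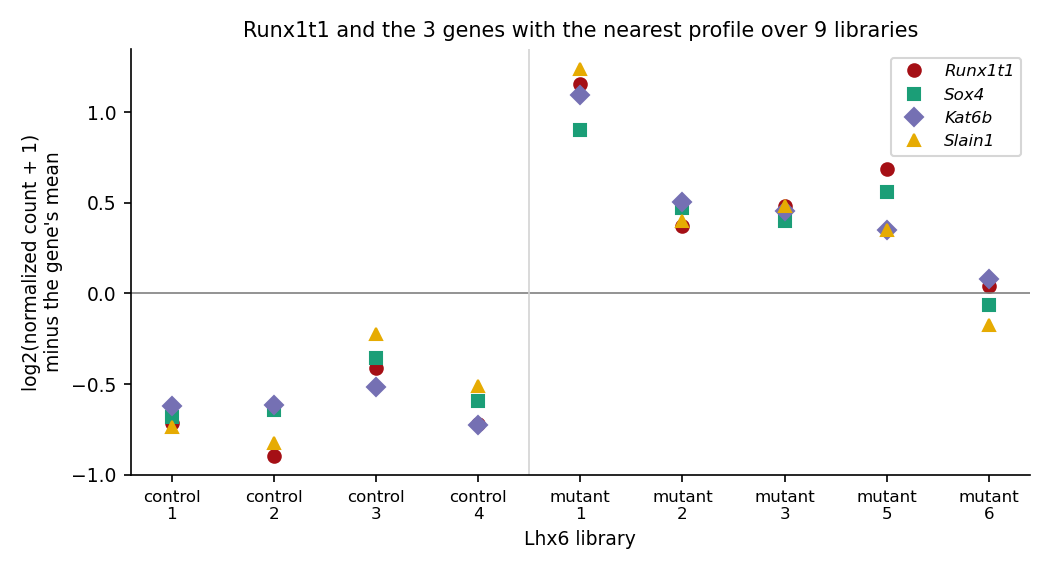
Log2(normalized count + 1) minus the gene's mean, for *Runx1t1* and the 3 genes with the nearest profile, in the 4 control and 5 mutant libraries of the *Lhx6* comparison. All 4 genes are below their mean in every control and highest in mutant 1, and in mutant 6 they lie near 0.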

How the data were processed

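YFP-positive cortical cells of single E14.5 embryos were sequenced, 15 libraries in all. Reads were trimmed with fastp 0.20.1, aligned to GRCm38.p6 with STAR 2.7b and counted on GENCODE genes with FeatureCounts 1.6.4 by the authors, who removed sex-linked genes; whether counting used strand is not given in the sources used here. The signal that the authors deposited is the count divided by a DESeq2 size factor, in a separate table for each comparison. The deposited tables also hold the authors' own DESeq2 output, with a log2 fold change, its standard error, a test score and p-values for each gene, and none of it was used. Every value was a whole multiple of 1 read within a tolerance of 0.01 (100% of values), which gave back the reads. The few embryos per group limit the precision.

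Groups and replicate numbers came from the sample labels. Each table was fitted with limma 3.58.1 in R 4.3.3, on log2(normalized count + 1) with a trend of the variance, and genes under a mean of 10 were left out. Tests were two-sided, with Benjamini-Hochberg adjustment over all genes tested and a threshold of 0.05. Fold changes on this scale understate those of low genes. Shares of levels per kilobase of exon were compared with exact permutation tests (scipy 1.17.1). The fits were tested on simulated data, in which DESeq2 called more unchanged genes than limma or edgeR. Alternatives were other pseudocounts and filters, other scalings, no trend, edgeR 4.0.16 and DESeq2 1.42.0 on recovered reads, a replicate block, the name form or the shared start of the name as a term, and each library left out.

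Named genes were the 9 members, the targeted genes, partner genes called by limma or DESeq2, and the 3 genes most like a called member. Genes of the marker and corepressor lists were also named, some of them, such as *Sst*, after their values were seen. The members and lists were chosen with earlier results of these data known. A gene of the corepressor list is not reported here, and the list's count and medians leave it out.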

Additional observations from a re-analysis of the deposited data

Results flagged for a closer look

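In 26 sets of values from groups of 4 or 5 libraries, the library farthest from the rest was compared with Dixon's 95% limit, and 4 values in 3 libraries exceeded it, where chance alone flags about 1 in 20 sets. *Lmo2* stood at 77.4 normalized counts in *Lhx6* control 3, against 30.1 to 36.5 in the other controls. *Ldb1* stood at 1257 normalized counts in *Lhx6* mutant 1, against 607 to 738 in the other mutants. *Ldb2* stood at 297 normalized counts in *Lhx6* mutant 6, the undated mutant, against 132 to 164 in the dated ones. The log2 ratio of summed LMO to summed LDB levels was 2.20 in *Lhx6* mutant 1, against 2.69 to 2.88 in the other mutants, and this ratio contains the high *Ldb1* value of the same library.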

How the results depend on the processing

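In the *Lhx6* comparison 286 genes passed limma's test, with 811 by DESeq2, 57 with the name form as a term and 159 to 492 with 1 library left out. Of the 9 members 1 passed, with 2 by DESeq2, 0 with the name form and 1 to 2 with 1 library left out. With the name form as a term *Cbfa2t2*, *Ldb2* and *Lmo1* changed sign, to log2 fold changes of 0.46, 0.42 and 0.41. In the *Mtg8* comparison 0 genes passed, with 1 without the filter, 2 at a minimum mean of 50, 31 by DESeq2 and 0 to 87 with 1 library left out, the 87 without labelled mutant 2. Leaving out 1 library turned the sign of *Cbfa2t2* (-0.050 to 0.37), *Cbfa2t3* (-0.032 to 0.33), *Ldb1* (-0.015 to 0.14) and *Ldb2* (-0.18 to 0.59, with -0.07 without control 4). The causes were not tested.

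With the shared name start as a term, an alternative chosen after seeing the data that leaves 2 and 1 residual degrees of freedom, 88 genes and 0 members passed in the *Lhx6* comparison and 15 genes and 0 members in the *Mtg8* comparison. *Cbfa2t2*, *Ldb2* and *Lmo1* changed sign in the first, to 0.48, 0.35 and 0.30, and *Ldb1* and *Lmo4* in the second, to -0.19 and -0.090.

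With a replicate block, 86 genes and 0 members passed in the *Lhx6* comparison (*Runx1t1* log2 fold change 1.34, adjusted p = 0.0541; *Ssbp3* 0.71, adjusted p = 0.351), and 100 genes and 1 member in the *Mtg8* comparison (*Lmo1* 1.23, adjusted p = 0.0286). In the *Lhx6* comparison, libraries with the same replicate number had correlations of -0.154 to 0.0717 over 3 pairs, so the numbers were not taken as pairs. In the *Mtg8* comparison the correlations were 0.138 to 0.159 over 2 pairs, against a mean of -0.043 over the 7 other pairs. Whether the numbers mark pairs there cannot be settled from 2 pairs, and the results above do not use them.

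With 1 library left out, the difference in share for *Lhx6* mutants was 19.4 to 21.7 percentage points for *Runx1t1*, 8.43 to 11.5 for *Lmo4* and 7.16 to 13.98 for *Ldb1*. Most of the *Runx1t1* and *Lmo4* values then missed the threshold, because fewer libraries raise the smallest p, and *Ldb1* passed it without mutant 6 (adjusted p = 0.0381). The LMO to LDB log2 ratio difference ranged from -0.15 to 0.13. In undated libraries alone the differences were 16.0 for *Runx1t1*, -3.65 for *Ldb1* and 5.30 for *Lmo4*. In the *Mtg8* comparison the *Ldb1* difference ranged from -7.67 to 4.14 and the *Lmo4* difference from -6.47 to 3.20 with 1 library left out, and they were -15.5 and -12.0 in dated libraries alone. Not divided by length, the *Lmo4* difference was 3.31. *Lmo2* rested on only 5 to 23 reads per library in the *Mtg8* comparison.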

Other observations

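The control embryos of the 2 comparisons carried the same Nkx2-1-Cre and reporter alleles and were wild type at the targeted genes, yet the make-up of their LMO family differed. Shares within a library do not depend on the separate normalization of the tables, and they are given as a description with no test. *Lmo3* made up 8.95% to 11.9% of the LMO level in *Lhx6* controls and 26.9% to 36.4% in *Mtg8* controls, and *Lmo1* made up 35.1% to 46.6% and 9.20% to 25.6%. *Lmo4* took a like part of both, 43.5% to 52.9% and 46.8% to 53.4%. The log2 ratio of summed LMO to summed LDB levels was 2.19 to 2.95 in *Lhx6* controls and 1.01 to 1.58 in *Mtg8* controls. Summed pyramidal markers were at 12280 to 17823 normalized counts in *Lhx6* controls and 4756 to 11916 in *Mtg8* controls. Other marker sums did not overlap between the control sets either. Progenitor sums were at 9068 to 11111 and 6257 to 7871, MGE sums at 46493 to 57600 and 75435 to 80425, and CGE sums at 1182 to 1377 and 1431 to 1527. These levels come from tables normalized separately, and their part in the LMO shares was not tested. In the MTG family the shares lay nearer to each other in the control sets, with *Runx1t1* at 59.0% to 60.8% and 55.7% to 59.3%, *Cbfa2t3* at 24.4% to 28.4% and 23.9% to 27.3%, and *Cbfa2t2*, which did not overlap, at 11.8% to 15.2% and 15.5% to 17.1%. All *Lhx6* controls had undated names, whereas *Mtg8* controls 1 and 2 had dated names and control 4 an undated one, and the comparison and the litters cannot be told apart.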
